A study of Mus musculus with 8 samples.

Results

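The genes described here are 9 genes of the insulin receptor pathway, Insr, Irs1, Irs2, Pik3r1, Akt1, Akt2, Foxo1, Foxo3 and Trib1, of 21951 protein-coding genes of the mouse annotation. They were chosen by name, and their values are the peaks of NONO-bound nuclear RNA that lay over their gene bodies. NONO binds RNA and is a core component of the paraspeckle, a nuclear body assembled on a long non-coding RNA. RNA immunoprecipitation (RIP) pulls the RNA attached to a protein out of a lysate with an antibody, here from liver nuclei, before sequencing. All mice were wild-type C57BL/6 animals, 14 weeks old, kept in 12 h light and 12 h dark and trained to eat in the dark phase only. The anti-NONO libraries came from fasted mice at zeitgeber time (ZT) 10, from mice re-fed for 2 h at ZT14, and from mice re-fed for 10 h at ZT22. Feeding state and clock time therefore changed together and cannot be told apart. A non-specific IgG immunoprecipitate served as the control, and the labels give neither its feeding state nor its ZT. Each of the 4 immunoprecipitates had its own input library, and each of the 8 libraries was a pool of 2 experiments. With 1 library per condition no difference below has a replicate check, and no p-value was computed.

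Insulin binds the receptor encoded by Insr, a tyrosine kinase that phosphorylates the docking proteins Irs1 and Irs2. These recruit phosphoinositide 3-kinase through its regulatory subunit Pik3r1, and the lipid made by the kinase brings Akt1 and Akt2 to the membrane. Akt phosphorylates Foxo1 and Foxo3, which then leave the nucleus, so that transcription of gluconeogenic genes in hepatocytes falls after a meal. Trib1 is a pseudokinase of the Tribbles family, whose members bind ubiquitin ligases and some of which bind Akt.

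The 4 stretches of sequence below are shown because results turn on them. They come from GENCODE M21 transcripts on GRCm38 (mm10), all 3 genes lie on the minus strand, and each is written 5′ to 3′. The first is the alternative exon of Insr (capitals) with its flanking intron, chr8:3181552-3181851. Skipping or including this 36-bp exon separates the A and B isoforms of the receptor, and the B isoform is the main one in adult liver. The second, chr8:3177833-3178058, is a stretch of Insr, intronic in the main transcript and exonic in a retained-intron transcript, under peaks at 2 h and at 10 h that no IgG peak overlapped. The third, chr13:101756468-101756767, is a stretch of Pik3r1, intronic in the main transcript and exonic in another annotated transcript, under peaks at all 3 times. Each of those peaks met an IgG peak, and the stretch was cut to begin where the IgG peak chr13:101755967-101756467 ends. The last, chr1:82286801-82286854, holds the coding bases of Irs1 (capitals) reached by the only peak on a coding exon of the 9 genes that no IgG peak overlapped.
Insr alternative exon: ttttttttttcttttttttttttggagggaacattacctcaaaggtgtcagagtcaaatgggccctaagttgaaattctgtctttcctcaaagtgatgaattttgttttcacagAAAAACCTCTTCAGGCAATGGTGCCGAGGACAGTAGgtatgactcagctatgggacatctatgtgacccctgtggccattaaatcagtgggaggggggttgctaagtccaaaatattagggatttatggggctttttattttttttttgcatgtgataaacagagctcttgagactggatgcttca
Insr stretch: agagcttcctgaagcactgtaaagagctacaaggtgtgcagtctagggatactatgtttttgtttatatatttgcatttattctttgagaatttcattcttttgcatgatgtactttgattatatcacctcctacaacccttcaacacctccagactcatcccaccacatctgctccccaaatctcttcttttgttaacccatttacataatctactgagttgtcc
Pik3r1 stretch: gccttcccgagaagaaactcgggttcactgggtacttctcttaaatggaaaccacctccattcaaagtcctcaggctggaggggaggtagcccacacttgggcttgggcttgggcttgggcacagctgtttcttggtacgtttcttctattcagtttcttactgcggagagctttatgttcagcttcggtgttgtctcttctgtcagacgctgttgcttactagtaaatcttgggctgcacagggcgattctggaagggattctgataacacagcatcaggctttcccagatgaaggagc
Irs1 coding end: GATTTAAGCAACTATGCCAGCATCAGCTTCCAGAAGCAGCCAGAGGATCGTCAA
The bases next to the Insr exon are AG upstream and GT downstream, the usual letters of splice sites.

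The immunoprecipitates held 18275033 to 21091048 tags. The lists held 38209 peaks (fasted), 61737 (2 h), 50609 (10 h) and 55946 (IgG), so the 2 h list was the longest of the NONO lists. IgG peaks overlapped 33.7%, 39.3% and 39.5% of the NONO peaks, in the order of time. The largest IgG peak took 37.5% of the IgG library, and without it every IgG tag value below would be 1.6 times higher. The factor does not apply to numbers of IgG peaks, covered lengths or shares of genes. A peak is a window, joined with neighbours within 1000 bp, that passed the authors' thresholds of 2-fold over input and 11 tags (8 in IgG). A gene with no peak may therefore still hold reads, and a number of peaks is not an amount of RNA. Normalised tags are tags per 10000000 tags of the library. Peaks were called on both strands together, so an antisense gene cannot be separated from its partner. Fewer cells of a type and less RNA per cell cannot be told apart in these bulk nuclei. Of 10 hepatocyte marker genes 4, 4 and 6 held a NONO peak, and 7 an IgG peak. Of 8 Kupffer cell markers 2, 3 and 4 held a NONO peak (3 in IgG). Of 8 endothelial markers 4, 4 and 5 did (4 in IgG), and of 7 stellate cell markers 2, 3 and 2 (5 in IgG). Of 6 lymphocyte and erythroid markers 1 held a peak in every list, and of 6 cholangiocyte markers 0. A peak is no measure of expression, and the part of cell composition in the results was not tested.

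Peaks lay over 8 of the 9 genes in fasted liver, 8 at 2 h and 7 at 10 h, and over 8 in IgG. Counting only NONO peaks that no IgG peak overlapped (IgG-free peaks), the numbers of genes were again 8, 8 and 7. Over all protein-coding genes an IgG-free peak was found in 26.4% (fasted), 31.3% (2 h) and 30.0% (10 h), and an IgG peak in 34.6%. Long genes can hold more peaks, and these shares take no account of length. Akt1 had no NONO peak at any time, and Trib1 had none at 10 h. The 9 genes together held 75 peaks in fasted liver, 118 at 2 h, 102 at 10 h and 113 in IgG. Of these NONO peaks 33, 52 and 39 were IgG-free. IgG peaks thus met 56.0%, 55.9% and 61.8% of the NONO peaks over the 9 genes, a higher share than in the whole lists at each time. A wide peak can meet an IgG peak more easily, and this comparison takes no account of peak width.

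**Figure D1:**
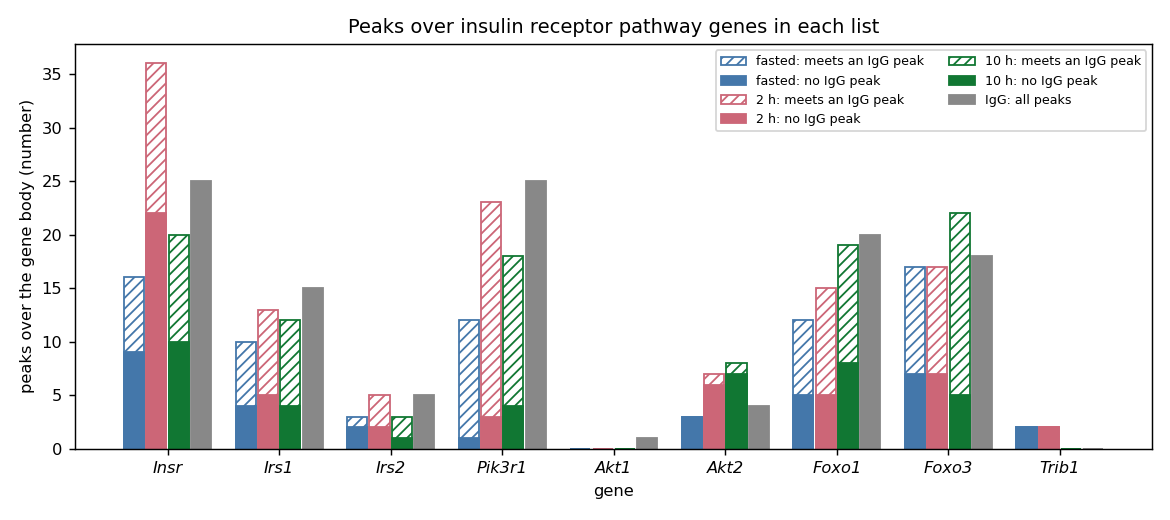
Number of peaks (y axis) over each gene (x axis) in the 4 lists. Solid bars count NONO peaks with no IgG peak, hatched bars the NONO peaks met by an IgG peak, and grey bars all IgG peaks. Insr has the tallest bar, 36 peaks at 2 h, while Akt1 has only 1 IgG peak and Trib1 only NONO peaks.

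Normalised tags summed over the peaks of the 9 genes were 3380.5 in fasted liver, 9664.5 at 2 h, 4603.2 at 10 h and 3742.0 in IgG. The peaks covered 68.3 kb, 222.0 kb, 107.0 kb and 161.0 kb in the same order. Input tags in the same peaks, per 10000000 library tags, were 1455.2, 4107.4, 1966.2 and 1327.1. The ratio of immunoprecipitate to input was therefore 2.32, 2.35 and 2.34 at the 3 times and 2.82 in IgG, against 2.59, 2.57, 2.51 and 3.59 in the whole lists. The larger sum at 2 h went with a longer covered length and more input in the peaks. Every peak had to pass 2-fold over input, which sets a floor under these ratios but no upper limit. Regions below that floor are not in the lists, so the ratios do not show whether enrichment differed between times.

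All 8 genes with peaks in both lists had at least 2-fold more peak tags at 2 h than in fasted liver, and none had 2-fold fewer. Among 5582 protein-coding genes with peaks in both lists 45.3% were at least 2-fold higher and 7.69% at least 2-fold lower. The median ratio was 3.09 for the pathway genes and 1.82 for all genes. Protein-coding genes with any peak had a median of 3 peaks in each list. The comparisons with all genes here take no account of peak number or gene length. Between 10 h and fasted liver 2 of 7 genes were at least 2-fold higher, Irs1 and Akt2, and none was lower. The background there was 32.1% higher and 9.06% lower of 5450 genes, with a median ratio of 1.61 for the pathway genes and 1.44 for all. Between 10 h and 2 h none was higher and 2 of 7 were at least 2-fold lower, Pik3r1 and Foxo3, against 12.8% higher and 23.9% lower of 6190 genes. The median ratio was 0.523 for the pathway genes and 0.79 for all. The first pair of comparisons shares the fasted library, and the last shares the 2 h library with the first and the 10 h library with the second. The ratio of enrichment over input between times lay between 0.70 and 1.18 for every pathway gene and pair of times, with the same floor on every peak.

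**Figure D2:**
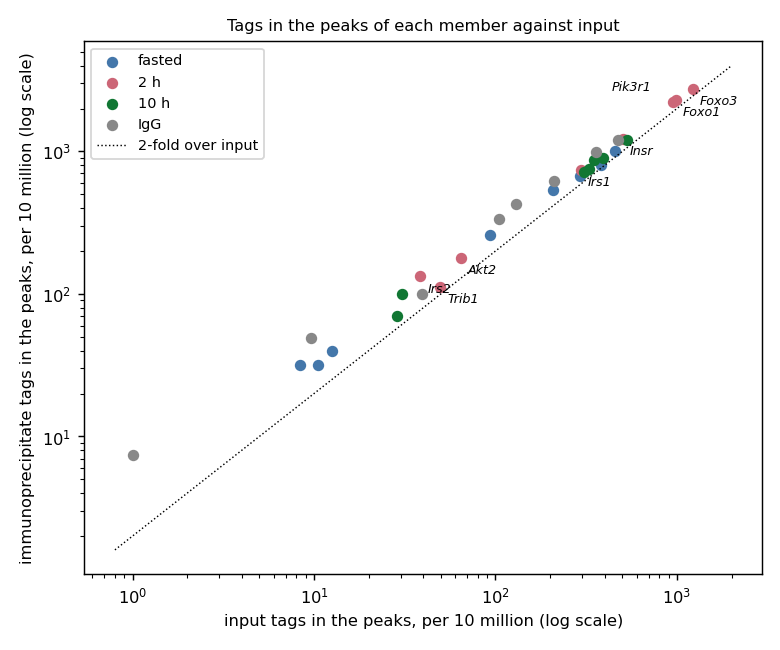
Immunoprecipitate tags (y axis) against input tags (x axis) in the peaks of each gene, both per 10000000 tags on log scales. Each point is 1 gene in 1 list, the names mark the 2 h points, and the dotted line is 2-fold over input, the authors' threshold. The points run along that line from the smallest to the largest sums, and the 2 h point of each gene lies above and to the right of its fasted point.

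Insr, the receptor itself (ENSMUSG00000005534.10, chr8:3122061-3279617, minus strand, 158 kb), is the longest of the 9 genes and had the most NONO peaks at 2 h. It held 16 peaks in fasted liver, 36 at 2 h, 20 at 10 h and 25 in IgG. Of the NONO peaks 9, 22 and 10 were IgG-free. Summed tags were 536.8 in fasted liver, 1218.4 at 2 h, 864.7 at 10 h and 426.5 in IgG. IgG was the lowest of the 4, but on the scale without its largest peak it reached 682.2, above the fasted value. The 2 h sum was 2.27 times the fasted sum (95% interval 2.12 to 2.44, exact, counting error only). The 10 h sum was 1.61 times the fasted sum and 0.71 times the 2 h sum. Covered length rose 2.6-fold and input in the peaks 2.43-fold from fasted to 2 h, so tags per covered kb were 39.4 in fasted liver, 34.4 at 2 h and 35.5 at 10 h.

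The longest intron of Insr, the second (46.7 kb), held 6, 17, 8 and 13 peaks in the fasted, 2 h, 10 h and IgG lists. Its tags were 260.0, 607.9, 303.7 and 211.6. The first intron (20.1 kb) was without any IgG peak, and it held 1 peak with 7.6 tags in fasted liver, 4 with 61.1 tags at 2 h and 2 with 25.8 tags at 10 h. In this intron 1 fasted peak and 1 peak at 2 h overlap the antisense gene Gm16180. Intron 5 (4.61 kb) had the reverse order, with 138.3 tags in fasted liver, 68.8 at 2 h, 75.5 at 10 h and 13.7 in IgG. The IgG-free peak with the best HOMER score in fasted liver lay in intron 2 (chr8:3254209-3255611, 96.5 tags, 2.41-fold over input). At 2 h 2 IgG-free peaks shared the best score of 46, chr8:3250868-3251833 with 44.1 tags (2.27-fold) and chr8:3254737-3255631 with 35.1 tags (2.2-fold). The best at 10 h was chr8:3249072-3249958, with 49.2 tags and 2.05-fold. These peaks lay in intron 2, and the second of the 2 h pair overlapped the best fasted peak. The widest 10 h peak, 3074 bp in intron 12 with 100.7 tags, met no peak of any other list.

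**Figure D3:**
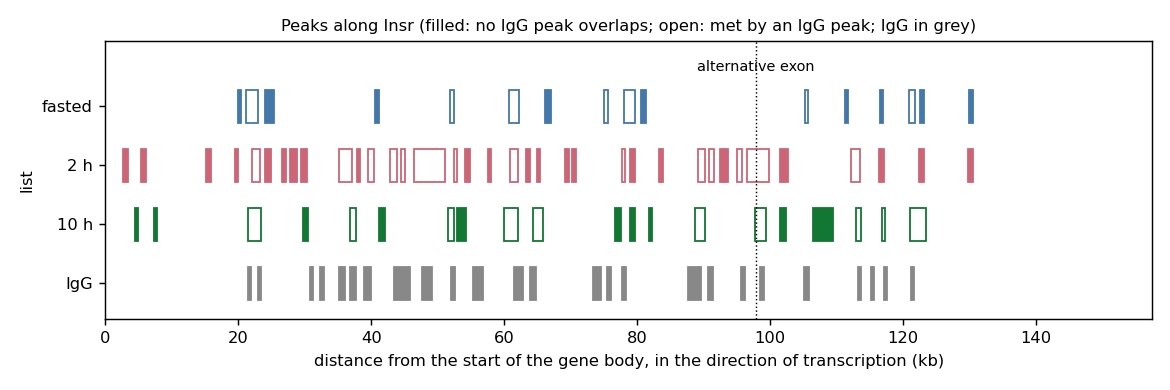
Peaks along Insr, with distance from the start of the gene body in the direction of transcription (kb) on the x axis and the 4 lists on the y axis. Each box is 1 peak drawn to scale, filled where no IgG peak overlaps and open where one does. The 36 peaks at 2 h are spread over the gene, and the dotted line marks the alternative exon.

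When the NONO peaks over Insr were joined across times, they made 46 regions. Peaks over all genes were not joined in this way, so the counts that follow have no background share. Of the 46 regions 6 were present at all 3 times, and each of those 6 met an IgG peak. Another 12 were present at 2 of the times and 28 at 1, of which 18 were seen at 2 h, 5 in fasted liver and 5 at 10 h. No joined region of Insr was therefore both IgG-free and present at every time. An IgG peak may touch only part of such a region, however. The 2 h peak chr8:3199873-3200646 and the 10 h peak chr8:3199886-3200687 were IgG-free and overlapped a fasted peak. That fasted peak, chr8:3199903-3201553, met an IgG peak that starts at 3201229, outside the stretch shared by the 3 times.

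The alternative exon of Insr lay under a NONO peak at 2 h and at 10 h, but not in fasted liver. The 2 h peak, chr8:3179813-3183107, held 180.6 tags at 2.25-fold over input. The 10 h peak, chr8:3180206-3181866, held 104.0 tags at 2.4-fold. The nearest fasted peak was 7316 bp away. An IgG peak of 18.4 tags (2.6-fold), chr8:3180528-3181170, lay inside both NONO peaks and ended 532 bp short of the exon, so neither NONO peak was IgG-free. Downstream in the same intron, the stretch printed above lay under IgG-free peaks at 2 h (chr8:3176976-3178058, 32.2 tags, 2.59-fold) and at 10 h (chr8:3177159-3178086, 39.9 tags, 2.11-fold). Peaks of this width do not place NONO on the exon, and isoform levels were not analysed here.

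**Figure D4:**
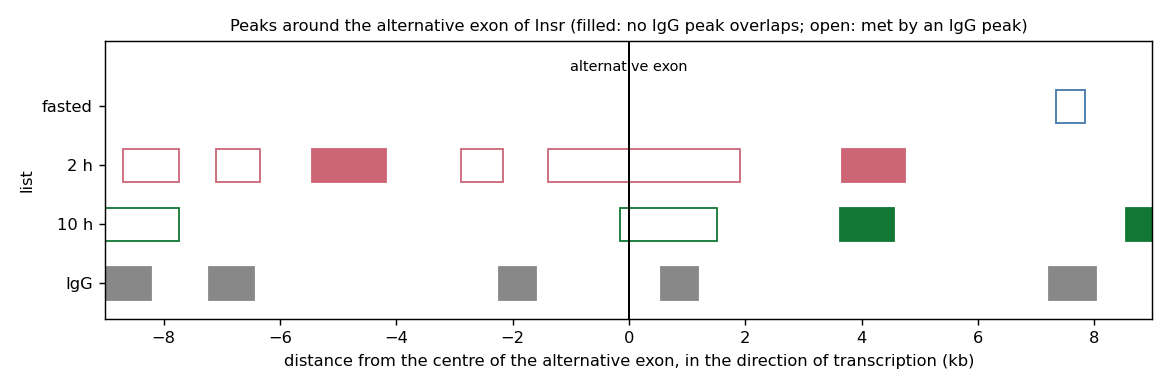
Peaks around the alternative exon of Insr, with distance from its centre in the direction of transcription (kb) on the x axis and the lists on the y axis. Filled boxes are NONO peaks with no IgG peak, open boxes NONO peaks met by one, and grey boxes IgG peaks. The 2 h and 10 h peaks span the exon, the nearest fasted peak starts 7.32 kb away, and an IgG peak ends 0.532 kb from it.

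By summed tags per 100 kb of gene body in the 4 lists (341, 773, 549 and 271 for Insr in the fasted, 2 h, 10 h and IgG lists), 4 of the 1832 genes compared were nearest to Insr. The measure is the sum of absolute log2 differences over the 4 lists. Arl15 had a distance of 0.39, Fgd6 of 0.40, Tbc1d5 of 0.41 and Mib1 of 0.45. Gene bodies were taken whole, and that of Insr reaches past its main transcript (chr8:3150922-3279617). The likeness is a description over 4 libraries.

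Irs1, a docking protein phosphorylated by the receptor (ENSMUSG00000055980.2, chr1:82233101-82291416, minus strand, 58.3 kb), held 10 peaks in fasted liver, 13 at 2 h, 12 at 10 h and 15 in IgG. IgG-free peaks numbered 4, 5 and 4. Summed tags were 259.0, 744.3, 714.1 and 336.9 in the fasted, 2 h, 10 h and IgG lists. The 10 h sum was 0.96 times the 2 h sum (0.89 to 1.03), but the peaks were called separately in each list, and among peaks of at least 3-fold over input the log2 ratio was -1.89. The sums at 2 h and 10 h were 2.87 and 2.76 times the fasted sum, and at 3-fold over input the 10 h value fell below the fasted one (log2 ratio -0.27). The coverage did not follow: 8.56 kb, 22.4 kb and 13.8 kb. Tags per covered kb were 30.3 in fasted liver, 33.2 at 2 h and 51.7 at 10 h.

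Most Irs1 peaks lay in its single intron, 9 of 10, 11 of 13 and 11 of 12. An IgG-free region near the end of the transcript, in the 3′ UTR exon (chr1:82235156-82236855), was present at all 3 times. It held 35.7 tags in fasted liver (3.08-fold over input), 52.6 at 2 h (2.30-fold) and 131.3 at 10 h (2.23-fold). Its tags were highest at 10 h, while the fold over input was highest in fasted liver. The region overlaps the gene Gm9747, from which it cannot be separated. At 2 h an IgG-free peak of 26.6 tags (chr1:82286223-82286854, 2.22-fold) reached the 54 coding bases printed above.

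Irs2, the other docking protein (ENSMUSG00000038894.7, chr8:10984681-11008458, minus strand, 23.8 kb), held few peaks, 3 in fasted liver, 5 at 2 h, 3 at 10 h and 5 in IgG. All its NONO peaks lay in its single intron of 17.5 kb. Summed tags were 40.0, 132.9, 69.5 and 48.9, with the fasted sum below IgG. On the scale without the largest IgG peak the IgG sum was 78.3, above the 10 h sum too. The 2 h sum was 3.32 times the fasted sum (2.60 to 4.29), but with lists cut to equal length by score it was the lower of the pair (log2 ratio -0.72). An IgG-free region at chr8:10991490-10993704 was present at all 3 times with 10.0, 24.7 and 8.21 tags.

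Pik3r1, the regulatory subunit of phosphoinositide 3-kinase (ENSMUSG00000041417.15, chr13:101680563-101768217, minus strand, 87.7 kb), had the smallest share of IgG-free peaks of the 8 genes with NONO peaks, at each time. It held 12 peaks in fasted liver, 23 at 2 h, 18 at 10 h and 25 in IgG, and only 1, 3 and 4 NONO peaks were IgG-free. Summed tags were 669.1, 2215.4, 897.3 and 1210.7, so IgG exceeded both the fasted and the 10 h sum. The 2 h sum was 3.31 times the fasted sum (3.12 to 3.52), and the 10 h sum was 0.41 times the 2 h sum (0.38 to 0.43). The printed stretch lay in intron 2 of the main transcript under the widest fasted peak (chr13:101754554-101757294, 215.9 tags, 2.14-fold) and under the widest 10 h peak (chr13:101753675-101757139, 188.2 tags, 2.39-fold), both of which met an IgG peak. The 1 region of Pik3r1 at all 3 times without IgG, chr13:101759460-101760364 in intron 1, held 33.3, 10.4 and 21.3 tags, with its lowest value at 2 h.

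Akt1 (ENSMUSG00000001729.14, chr12:112653821-112674884, minus strand, 21.1 kb) and Akt2 (ENSMUSG00000004056.15, chr7:27591552-27640826, plus strand, 49.3 kb) encode kinases of the same family, and Akt2 is the main form in insulin-responsive tissues. Akt1 had no NONO peak in any list and 1 IgG peak of 7.4 tags (7.28-fold). Akt2 held 3 peaks in fasted liver, 7 at 2 h, 8 at 10 h and 4 in IgG. Of its NONO peaks 3, 6 and 7 were IgG-free, the largest share among the genes with a peak at all 3 times. Summed tags were 31.8 in fasted liver, 179.3 at 2 h, 100.6 at 10 h and 99.5 in IgG. On the scale without the largest IgG peak the IgG sum was 159.2, above the 10 h sum. The 2 h sum was 5.64 times the fasted sum (4.33 to 7.41). On the log2 scale this ratio was 2.49, and it was 1.62 at 3-fold over input. A single peak near the gene start, chr7:27592834-27594703, gave 96.2 of the 179.3 tags at 2 h, and IgG had a peak of 71.1 tags there. The remaining Akt2 peaks at 2 h held 5.22 to 26.6 tags each. An IgG-free region in intron 6, chr7:27631061-27631826, was present at all 3 times with 9.03, 9.96 and 13.7 tags.

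Foxo1 (ENSMUSG00000044167.6, chr3:52268336-52353221, plus strand, 84.9 kb) and Foxo3 (ENSMUSG00000048756.11, chr10:42181841-42276755, minus strand, 94.9 kb) encode the transcription factors that Akt keeps out of the nucleus. Each has 1 intron that makes up most of the gene, 75.6 kb in Foxo1 and 76.9 kb in Foxo3. These introns held 12 of 12, 14 of 15 and 19 of 19 NONO peaks of Foxo1, and 15 of 17, 15 of 17 and 19 of 22 of Foxo3, in the order of time.

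Foxo1 had 808.6 tags in fasted liver, 2306.8 at 2 h, 1207.5 at 10 h and 622.3 in IgG, which is 995.4 on the scale without the largest IgG peak. It had 12, 15 and 19 NONO peaks, of which 5, 5 and 8 were IgG-free, and 20 IgG peaks. From fasted to 2 h tags rose 2.85-fold and covered length 4.12-fold, so tags per covered kb went from 66.1 to 45.8, and stood at 53.2 at 10 h. The widest peak at 2 h, 10518 bp with 645.3 tags, met peaks of all other lists.

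Foxo3 had 1003.4 tags in fasted liver, 2755.6 at 2 h, 749.5 at 10 h and 989.9 in IgG. On the scale without the largest IgG peak the IgG sum was 1583.4, above the fasted and 10 h sums. Foxo3 was the one gene of the 7 with peaks at all 3 times with a 10 h sum below its fasted sum (ratio 0.75, 0.70 to 0.80). Against 2 h its 10 h sum was 0.27-fold (0.26 to 0.29). The number of peaks moved otherwise, with 17, 17 and 22 NONO peaks, whose median width was 500 bp, 1272 bp and 570.5 bp. The widest, chr10:42236094-42257804, was 21710 bp long and held 892.8 tags at 2.16-fold over input, and it met IgG peaks. IgG-free peaks numbered 7, 7 and 5. An IgG-free region at chr10:42198277-42199967 was present at all 3 times with 20.4, 21.8 and 8.2 tags.

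**Figure D5:**
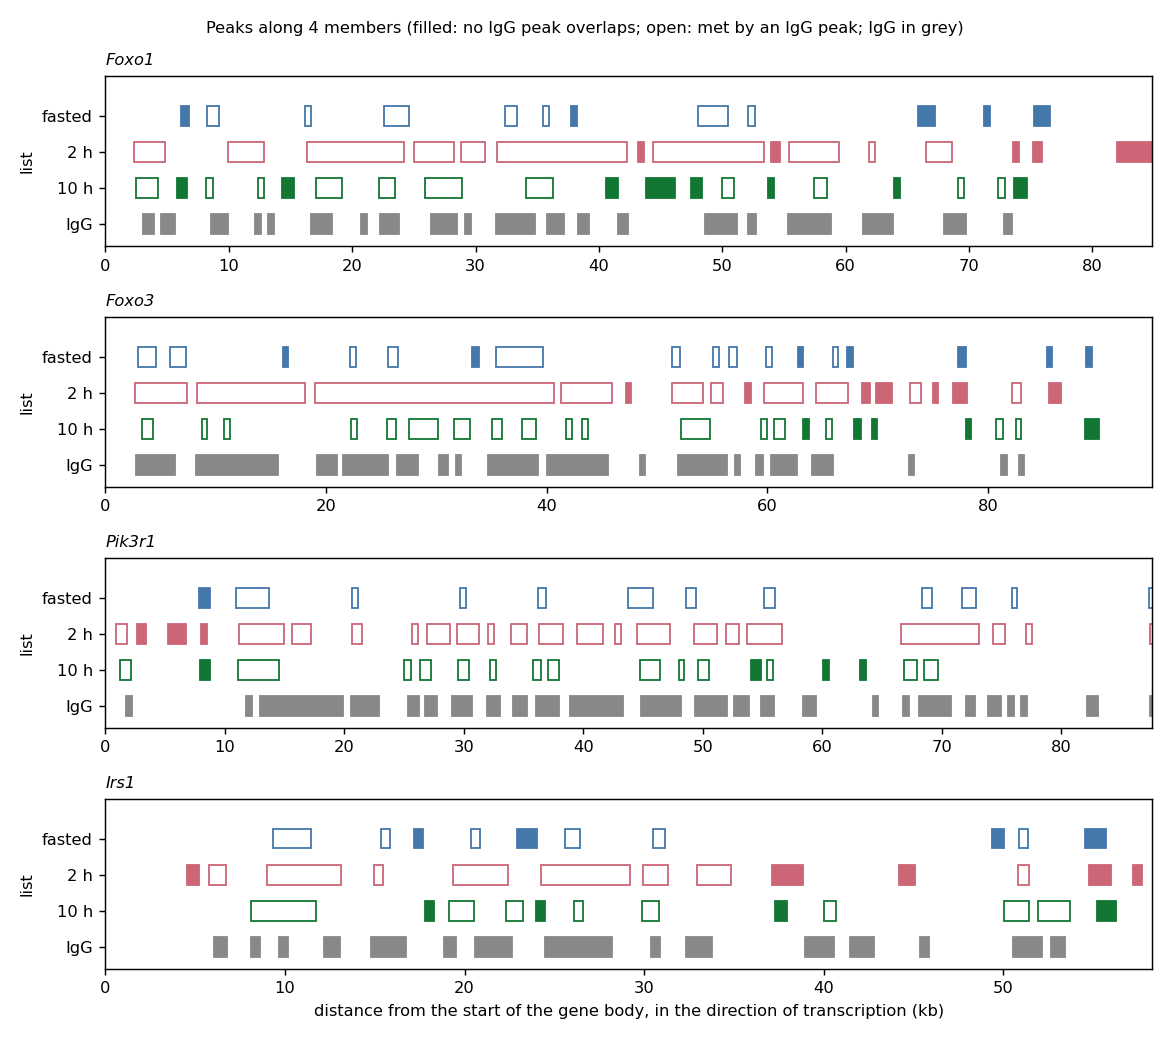
Peaks along Foxo1, Foxo3, Pik3r1 and Irs1, with distance from the start of each gene body in the direction of transcription (kb) on the x axis and the lists on the y axis. Filled boxes are NONO peaks with no IgG peak, open boxes NONO peaks met by one, and grey boxes IgG peaks. The 2 h boxes are wider than the fasted ones, most of all the 21710-bp peak of Foxo3.

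Trib1 (ENSMUSG00000032501.9, chr15:59648350-59657099, plus strand, 8.75 kb) was the smallest of the 9 genes and the one with NONO peaks but no IgG peak. It held 2 peaks in fasted liver with 31.8 tags and 2 at 2 h with 111.9 tags, a ratio of 3.52 (2.67 to 4.68). The covered length was 1.30 kb and 1.29 kb, and the higher tag sum at 2 h went with a density of 86.4 tags per covered kb against 24.4 in fasted liver. Input in the peaks was higher too, 49.3 against 10.5 tags per 10000000. Of the 2 h tags 102.9 came from 1 peak, chr15:59652311-59652936 (2.15-fold, HOMER score 141), which had no counterpart in fasted liver, at 10 h or in IgG. A fasted peak of 16.6 tags, chr15:59655039-59655539, lay at 79.3% of the gene length. Another peak recurred across the gene end, its midpoint outside the gene body, with 15.2 tags in fasted liver and 9.01 at 2 h. Counting by midpoint leaves this recurring peak out, and the log2 ratio of 2 h to fasted was then 2.63 instead of 1.82. At 3-fold over input, which the 102.9-tag peak does not reach, the 2 h sum was below the fasted one (log2 ratio -0.75). No ratio is given for 10 h, where the list holds no Trib1 peak.

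Most peaks over the 9 genes lay in introns. By peak midpoint the share was 95.9% in fasted liver, 95.7% at 2 h and 98.0% at 10 h, and 96.4% in IgG. Over all protein-coding genes it was 94.2%, 94.2%, 93.9% and 94.1%. No NONO peak lay over the annotated start of a main transcript. Joined over the 3 times, the NONO peaks made 154 regions, of which 31 were present at all times, 44 at 2 and 79 at 1. Of the 79, 45 were seen at 2 h, 22 at 10 h and 12 in fasted liver. Of the 31 regions 5 met no IgG peak, 1 each in Irs1, Irs2, Pik3r1, Akt2 and Foxo3. A joined region counts as met if an IgG peak overlaps any part of it, so a wide region can meet one more easily. These region counts were not made over all genes, so they have no background share. The lists also differ in length, with 2 h the longest of the NONO lists.

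A wider list of 46 other genes of insulin signalling gave IgG-free peaks in 26 genes in fasted liver, 30 at 2 h and 31 at 10 h. IgG peaks lay over 30 of them. Over all protein-coding genes the shares were 26.4%, 31.3% and 30.0%, and 34.6% for IgG, again without account of gene length. The list was drawn up by function and not by values. Of these genes 25 had an IgG-free peak at all 3 times, and 12 had no NONO peak. Shares over all genes were not computed for these counts. In single lists 6230 (fasted), 7437 (2 h) and 7174 (10 h) of the 21951 protein-coding genes held a peak, so most genes had none. Among the 12 without a NONO peak was Igf1r, the receptor most like Insr, which had 10 IgG peaks of 61.1 tags in all. Also without a NONO peak were the Akt-binding Trib3 (6.61 kb long) and the relatives Foxo4 (6.35 kb) and Foxo6 (20.3 kb). Socs1 (3.3 kb) and Socs3 (3.97 kb), inhibitors of receptor signalling, had none either. From fasted liver to 2 h 14 of 26 genes were at least 2-fold higher and 0 lower, with a median ratio of 2.13, against 45.3% and 7.69% of all genes and a median of 1.82. From fasted liver to 10 h 12 of 26 were higher and 2 lower, with a median of 1.74, against 32.1% and 9.06% of all genes and a median of 1.44. The 2 lower genes, named after their values were seen, were the phosphatase Ptpn11 (49.4 to 14.2 tags) and the adaptor Sh2b1 (30.0 to 8.2 tags), each with 1 peak at 10 h. From 2 h to 10 h 1 of 28 was higher and 4 lower, with a median of 0.735, against 12.8% and 23.9% of all genes and a median of 0.79. The 1 higher gene was Ptprf, and the 4 lower ones were Grb2, Ptpn1, Ptpn11 and Sh2b1.

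The adaptor Grb2, which links the receptor to Ras, had 33.8 tags in fasted liver, 258.3 at 2 h and 107.8 at 10 h, ratios of 7.65 and 3.19 to fasted liver. Its IgG sum was 80.5 tags, above the fasted sum. Other genes went the other way at 2 h: the ubiquitin ligase Cblb had 681.2 tags in fasted liver and 389.2 at 2 h (ratio 0.57), and Enpp1, an inhibitor of the receptor, had 92.2 and 80.2 (0.87). The IgG sums were 145.2 for Cblb and 28.9 for Enpp1. The docking protein Gab1 (0.51) and the kinase Map2k1 (0.52) had the lowest 10 h to fasted ratios among genes with at least 3 peaks in both lists. Gab1 had 228.7 tags at 10 h and 427.0 in IgG, and Map2k1 had 324.5 and 79.0. Between 2 h and 10 h, among genes with at least 3 peaks in both lists, the receptor phosphatase Ptprf had the highest ratio (4.69). Grb14, an inhibitor of the receptor, followed (1.87). Grb2 (0.42) and Pik3cb, a catalytic subunit of phosphoinositide 3-kinase (0.50), had the lowest. Ptprf had 33.2 tags at 2 h and 155.5 at 10 h, both below its IgG sum of 169.1. The IgG sum of Grb14, 470.6, was above its fasted sum of 455.0 only, and that of Pik3cb, 53.7, was below its sum at each time. Among the genes with the most IgG-free peaks over the 3 times were Prkce (70), Cblb (65), Phlpp1 (59), Gsk3b (46) and Sos2 (32).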

How the data were processed

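Per the submitters' processing notes, the tools were FastQC 0.11.2, STAR 2.4.0k and HOMER on mm10. HOMER windows were 500 bp wide and were joined within 1000 bp, with each immunoprecipitate set against its own input, per the file headers. The deposited signal is tags per 10000000. The deposited fold is the authors' ratio to input, and the deposited score is HOMER's. Tag counts in the deposited input column were scaled differently between lists per the file headers, so input was rescaled here to tags per 10000000.

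Peaks were laid on GENCODE M21 gene bodies by 1 bp of overlap, and an IgG-free peak met no IgG peak by 1 bp. Ratios are of summed signal, with exact 95% Poisson-based intervals that cover counting error only, and a call means at least 2-fold. The named-gene rule gives all 9 pathway genes. From the wider list it gives the 6 genes with most IgG-free peaks and, for every 2 times compared, the 2 highest and the 2 lowest tag ratios where both lists had at least 3 peaks. It gives the 4 genes most like Insr among those with at least 10 peaks at 2 h, and per gene and list the best-scoring IgG-free and the widest peak. Not every gene this rule gives is reported here. Peaks and regions described beyond it, such as those at the alternative exon of Insr, were chosen after their values were seen. Members and lists were chosen with earlier results of these data known. Overlap counting was tested on simulated data. Scripts ran under Python 3.11.15 with pandas 2.3.3, scipy 1.17.1 and numpy 2.4.6.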

Additional observations from a re-analysis of the deposited data

How the results depend on the processing

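No paired analysis was possible because every condition was represented by a single library, and no replicate could be left out. The number of IgG-free peaks depended on the filters. At 3-fold over input it fell to 13 (fasted), 30 (2 h) and 14 (10 h) over the 9 genes, and to 5, 8 and 3 over Insr. Where an IgG peak had to cover 0.5 of a peak it was 52, 81 and 67, and 17 for Insr at 10 h. Without an IgG filter, an alternative chosen after seeing the data, it was 75, 118 and 102, and 16, 36 and 20 for Insr. With lists cut to equal length by score, 1 gene of 7 was at least 2-fold higher at 10 h than in fasted liver (28.5% of all genes), and 1 of 7 was higher (14.1%) and 3 lower (22.2%) at 10 h than at 2 h. At 2 h against fasted liver 7 of 8 genes were still 2-fold higher at equal length (37.1% of all genes) and 6 of 7 at 3-fold over input (46.0% of all genes). Among values that differed at least 2-fold, reversals at equal length were Akt2 (2 h and 10 h minus fasted IgG-free peaks, -1 and -1) and Irs2 (log2 tag ratio of 2 h to fasted, -0.72). At 3-fold over input they were Trib1 (2 h to fasted, -0.75) and Irs1 (10 h to fasted, -0.27). For peak numbers this 2-fold limit was set after the values were seen. Below it, 4 log2 tag ratios changed sign: at equal length Irs1 (0.08) and Irs2 (1.34) for 10 h to 2 h, and at 3-fold over input Irs2 for 10 h to fasted (-0.28) and Insr for 10 h to 2 h (0.14). So did 9 differences in peak number: at 3-fold over input Insr (-2) and Foxo3 (3) for 10 h minus fasted and Pik3r1 (-1) and Foxo1 (-1) for 10 h minus 2 h, with IgG covering 0.5 Irs1 (1) and Foxo3 (1) for 10 h minus 2 h, and without an IgG filter Foxo3 (5 and 5, 10 h minus fasted and minus 2 h) and Pik3r1 (-5, 10 h minus 2 h). The Akt2 log2 tag ratio of 2 h to fasted, 2.49 for the reported 5.64-fold, was 1.62 at 3-fold over input. The cause was not tested.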
